A study of Mus musculus with 5 samples.

Results

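The proteasome genes were taken as every gene whose symbol is Psma, Psmb, Psmc, Psmd, Psme, Psmf or Psmg followed by a number. This rule found 48 of the 32285 genes counted in 5 single-cell RNA-seq libraries of mouse 3T3-L1 cells. The rule used names only, and no measured value entered it. Of the 48 genes, 44 reached at least 20 CPM (UMIs of the gene scaled to the library total) in at least 1 of the 2 libraries of every comparison. The other 4 stayed under 5 CPM in all 5 libraries: Psmb8, Psmb9, Psma8 and Psmb11.

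3T3-L1 is an established mouse preadipocyte cell line that turns into fat-storing adipocytes when given a hormone cocktail. All the cells came from this line, so the libraries describe cultured cells without the vessels, immune cells and nerves of fat tissue. In 2 libraries, from day 3 and day 6, the cells had received the cocktail of dexamethasone, insulin and 3-isobutyl-1-methylxanthine, followed by insulin-containing medium, together with the polycation polymer P-G3 at 10 μg/mL from the first day of induction. In 2 others, untreated cells on day 3 and day 6 had the cocktail without the polymer. The fifth library held day 0 cells, labelled fibroblasts, with neither cocktail nor polymer. Each group was 1 library, so no difference below has a replicate check, and differences between conditions cannot be told apart from differences between libraries. The printed intervals cover counting error only.

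The proteasome is the cell's main machine for degrading proteins tagged with ubiquitin. Its 20S core is a barrel of stacked rings: α subunits (the Psma genes) form the outer rings and gate the entrance, and β subunits (the Psmb genes) form the inner rings, among them the peptidases. The 19S cap sits on the core. Its base holds the ATPases that unfold substrates (the Psmc genes) and the scaffolds Psmd1 and Psmd2, with the ubiquitin receptor Psmd4. Its lid is built of other Psmd proteins and includes Psmd14, the enzyme that removes ubiquitin. Other caps, inhibitors and assembly chaperones complete the family. In cells exposed to interferon, 3 alternative peptidases (Psmb8, Psmb9, Psmb10) replace the standard ones to form the immunoproteasome, which makes peptides for antigen presentation. In mammalian cells the transcription factor NRF1 (gene Nfe2l1) is known to raise proteasome genes together when degradation is impaired, binding antioxidant response elements.

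The sequences just before the transcription start are printed for 5 members: the α ring genes Psma1, Psma5 and Psma6, whose levels parted from those of the other α genes, and Psmb5 and Psmb6, peptidase genes whose windows hold a match to the antioxidant response element. Each is the 250 bases before the RefSeq start (GRCm38.p6), 5′ to 3′ on the gene's strand, and capitals mark the motif matches. The window of Psma1 lies at chr7:114276117-114276366 (minus strand), that of Psma5 at chr3:108256676-108256925 (plus), that of Psma6 at chr12:55383972-55384221 (plus), that of Psmb5 at chr14:54617996-54618245 (minus) and that of Psmb6 at chr11:70525107-70525356 (plus). All end directly before an annotated start.
Psma1: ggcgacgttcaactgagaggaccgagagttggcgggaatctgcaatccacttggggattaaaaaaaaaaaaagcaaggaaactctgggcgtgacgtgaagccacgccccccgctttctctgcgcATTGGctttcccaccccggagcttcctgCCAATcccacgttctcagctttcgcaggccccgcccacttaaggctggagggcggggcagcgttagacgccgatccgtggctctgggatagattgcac
Psma5: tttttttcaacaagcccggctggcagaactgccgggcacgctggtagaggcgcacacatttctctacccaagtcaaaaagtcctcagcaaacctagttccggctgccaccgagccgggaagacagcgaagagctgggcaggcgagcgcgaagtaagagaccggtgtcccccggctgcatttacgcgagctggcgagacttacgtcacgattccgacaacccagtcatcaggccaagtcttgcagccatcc
Psma6: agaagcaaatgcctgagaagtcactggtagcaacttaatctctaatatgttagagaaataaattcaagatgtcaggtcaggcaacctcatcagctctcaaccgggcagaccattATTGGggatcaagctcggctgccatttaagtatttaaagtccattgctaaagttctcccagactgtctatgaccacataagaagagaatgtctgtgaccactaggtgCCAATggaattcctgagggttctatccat
Psmb5: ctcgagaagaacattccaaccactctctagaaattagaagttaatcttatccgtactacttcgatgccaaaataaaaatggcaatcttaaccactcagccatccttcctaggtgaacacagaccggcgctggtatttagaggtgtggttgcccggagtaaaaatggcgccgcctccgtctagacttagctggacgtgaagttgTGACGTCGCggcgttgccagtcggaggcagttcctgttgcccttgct
Psmb6: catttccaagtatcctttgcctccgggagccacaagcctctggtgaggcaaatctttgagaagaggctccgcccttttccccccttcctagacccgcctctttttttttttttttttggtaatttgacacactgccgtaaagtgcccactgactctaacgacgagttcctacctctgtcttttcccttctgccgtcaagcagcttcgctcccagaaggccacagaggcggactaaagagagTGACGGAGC

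The motifs searched, on both strands, were TGACNNNGC (the antioxidant response element core), GAAA followed by any 2 bases and GAAA again (a core of the interferon-stimulated response element) and CCAAT (the box bound by NF-Y). RefSeq's promoters cover 40 members, with 43 start windows of this length. CCAAT was in 14 of the 43 (32.6%), against 33.8% of all 32851 windows of mouse genes. TGACNNNGC was in 5 (11.6%), against 10.2% of all windows, in Psmb5, Psmb6, Psmc6, Psmd9 and Psmd12. The interferon-stimulated core was in 3 (6.98%), against 2.98%, in Psmb3, Psmd4 and Psmd9. In the printed windows Psma1 and Psma6 each hold 2 CCAAT matches, 1 on each strand, and the matches of Psmb5 and Psmb6 start 47 and 9 bases before the start. No printed match overlaps a match of another motif, and Psma5 has no match of these letters in its window. A match is a run of letters and was not tested as a binding site.

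After cells with fewer than 500 detected genes or more than 20% mitochondrial counts were left out, the libraries held between 2468 and 3893 cells and between 88432894 and 179221992 unique molecular identifiers (UMIs, counted RNA molecules). Median UMIs per cell were 16657.5 in the day 6 P-G3 library and lay between 34214.5 and 47503.5 in the other 4. Pairs of libraries shared between 4 and 7 cell barcodes. The summed level of 16 adipocyte markers was 13068 CPM on day 3 and 40587 CPM on day 6 with P-G3, and 189, 8825 and 34643 CPM from day 0 to day 6 in the course without it. Cfd and Mrap among them were at 0 on day 0. Summed markers of dividing cells were between 1277 and 1700 CPM on day 0 and on day 3 and near 262 CPM in both day 6 libraries. Of 12 immune cell markers none reached 5 CPM in any library, and Adgre1, Cd3e and Tyrobp were at 0 in all 5.

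During differentiation without the polymer, the summed CPM of the family stayed near its day 0 level while some members parted from it. The 48 genes together made up 8451, 7820 and 7822 CPM from day 0 to day 6. Psma1, an α ring gene, was the member with the highest ratio of day 6 to day 0, and Psmc3 and Psmc4, ATPases of the base, had the lowest. Activator genes Psme2 and Psme3 were higher on day 6 than on day 3. Ratios are given as log2 of (CPM + 1) over (CPM + 1), which understates the change of low genes, and a gene is counted as higher where it exceeded the other library by at least 25%, and as lower where it fell short by the same factor, with 20 CPM in either library.

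On day 3 against day 0, 3 of the 44 measured members were higher, where 26.0% of 5716 genes were, and 7 were lower, where 21.4% of genes were. The members' median log2 ratio was −0.11, against 0.08 over all genes, a difference of −0.19. On day 6 against day 3, 7 members were higher (all genes 30.8%) and 3 were lower (all genes 20.9%). The median was −0.06, against 0.05 over all genes, and it turned to 0.10 when each cell was weighted equally. On day 6 against day 0, 7 were higher (all genes 39.8%) and 13 were lower (all genes 29.1%), with a median of −0.16 against 0.13 over all genes. Each share of higher members was below that of all genes. With TMM and median-of-ratios scaling, which lower the ratios to day 0, the medians were −0.22 and −0.26 on day 3 and −0.31 and −0.32 on day 6, and 17 and 18 members were lower on day 3 and 20 and 22 on day 6. At 2-fold, 0 members were higher and 0 lower on day 3 against day 0, where 6.09% and 3.8% of genes were. On day 6 against day 3, 2 were higher (all genes 7.82%) and 0 lower (all genes 5.05%), and against day 0, 2 were higher (all genes 16.6%) and 0 lower (all genes 10.0%). These 3 comparisons share libraries, so they do not bear on each other independently.

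**Figure D1:**
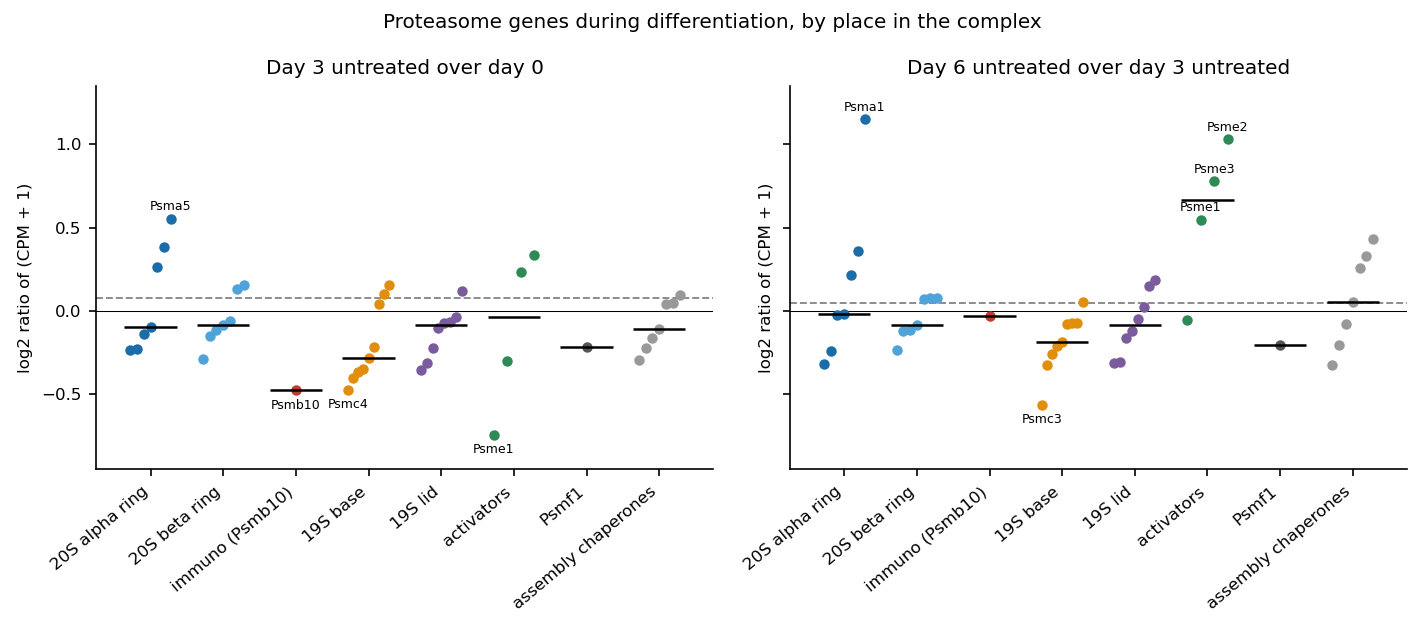
log2 ratio of (CPM + 1) for the 44 measured proteasome genes, grouped by place in the complex, for day 3 untreated over day 0 (left) and day 6 untreated over day 3 untreated (right). Each point is 1 gene, the short black bar is the group's median, the dashed line is the median of all genes and genes past 0.45 either way are named. Most members lie within 0.5 of 0, with Psma5 (0.55) highest and Psme1 (−0.74) lowest on the left, and Psma1 (1.15), Psme2 (1.03) and Psme3 (0.78) highest on the right.

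Within the α ring, Psma1, Psma5 and Psma6 were higher on day 6 than on day 0, and Psma7 and Psma2 were lower. Psma1 had 129 CPM on day 0, and untreated cells had 169 CPM on day 3 and 376 CPM on day 6. Its log2 ratio of day 6 to day 0 was 1.54, with the CPM ratio between 2.86 and 2.97 by its 95% counting interval. The 3 levels stepped up at each time, with the larger step after day 3 (1.15, against 0.39 before it), and it passed 2-fold on day 6 against day 3. Psma5 had 146, 215 and 249 CPM at the same times, and its larger step came before day 3 (0.55, against 0.21 after it). Psma6 had 163, 195 and 251 CPM, with a log2 ratio of day 6 to day 0 of 0.62. Psma7 had 733, 624 and 501 CPM, a log2 ratio of −0.55 over the 6 days. Psma2 (−0.46), Psma3 (−0.12) and Psma4 (−0.16) had ratios on the same side. So the 7 genes, whose proteins occupy 1 place each in the ring, ranged over more than 2 log2 units on day 6 against day 0. Over the ring the median was −0.12, and it turned to 0.05 when each cell was weighted equally.

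The β ring varied less than the α ring. On day 6 against day 0 its 7 genes had log2 ratios between −0.23 (Psmb6) and 0.23 (Psmb7), and none passed 25% at either step or over the 6 days. Psmb5, the chymotrypsin-like peptidase and the target of bortezomib, had 406, 366 and 385 CPM at the 3 times. Psmb6, the caspase-like peptidase, had 356, 330 and 303 CPM at these times. Psmb7, the trypsin-like peptidase, had 154, 172 and 181 CPM. The 3 standard peptidase genes therefore stayed within 0.25 log2 units of their day 0 levels. Among the others, Psmb2 was the lowest on day 3 against day 0 (−0.29), and Psmb1 was the lowest on day 6 against day 3 (−0.24).

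The base of the 19S cap was lower after induction, mainly through its ATPases. On day 3 against day 0, 4 of the 6 Psmc genes were called lower (21.4% of all genes), and 5 of 6 were on day 6 against day 0 (29.1% of all genes), with a median log2 ratio of −0.55. Psmc3 had 188, 145 and 98.1 CPM from day 0 to day 6, giving a log2 ratio of −0.93 over the 6 days. Psmc4 had 158, 114 and 90.6 CPM, a ratio of −0.79. Psmc2 (−0.55), Psmc5 (−0.54) and Psmc6 (−0.35) followed, and all 5 kept their sign under the 10 alternative settings. Psmc1 was the exception, with 78.3, 87.5 and 83.1 CPM. The non-ATPase members of the base had ratios of −0.14 (Psmd1, a scaffold), 0.03 (Psmd2, the other scaffold) and −0.30 (Psmd4, which binds ubiquitin chains). The ATPases are partners in a single ring, yet their ratios spread over more than 1 log2 unit.

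Summed UMIs give the balance of the parts. Base UMIs per core UMI (7 α and 7 β genes) were 0.316 on day 0, 0.281 on day 3 and 0.248 on day 6 in untreated cells. Lid UMIs per core UMI were 0.289, 0.272 and 0.255. Counting intervals of neighbouring days did not overlap in either series (for base on day 6, between 0.246 and 0.249). Alpha UMIs per beta UMI were 0.901, 0.907 and 1.00. The α sum was 2238 CPM on day 0 and 2283 CPM on day 6, and it includes Psma1 with 129 and 376 CPM. This quotient therefore does not describe the α ring as a whole. The median log2 ratio of day 6 to day 0 was −0.12 over the α ring and −0.17 over the β ring. In medians of the members, the base stood 0.21 log2 units below the core on day 6 against day 0, and between 0.15 and 0.33 below it under the 10 alternative settings. The lid stood 0.06 below the core, between 0.04 and 0.11 under the settings.

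Among the 8 lid genes the median log2 ratio of day 6 to day 0 was −0.20, and 3 were called lower, a share near that of all genes (29.1%). Psmd7, which pairs with the deubiquitinase in the lid, had 378, 324 and 262 CPM from day 0 to day 6, the lowest ratio of the lid (−0.53). Psmd13 (−0.48) and Psmd6 (−0.41) were the other lid genes called lower. Psmd14, the deubiquitinase, had 149, 116 and 129 CPM: the lowest lid ratio on day 3 against day 0 (−0.36), followed by a higher level on day 6 than on day 3 (0.15). Psmd3, a lid scaffold, had the highest ratio of day 6 to day 0 in the lid (0.15, but −0.01 with median-of-ratios scaling), with 97.2, 106 and 108 CPM, and Psmd8 had the highest on day 6 against day 3 (0.18).

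The immunoproteasome genes divided into a pair near the limit of detection and 1 gene at a clear level. Psmb10, which replaces Psmb7, had 74.2, 53.0 and 52.0 CPM from day 0 to day 6 of the untreated course, with a log2 ratio of −0.48 at the first step and −0.03 at the second. Psmb8, which replaces Psmb5, had 210, 77 and 91 UMIs in these libraries, which is 1.32, 0.55 and 1.03 CPM. Psmb9, which replaces Psmb6, had 86, 107 and 41 UMIs, or 0.54, 0.77 and 0.46 CPM. No immune cell marker reached 5 CPM, as given above, while their sum in a library (2.43 to 4.03 CPM) is of the order of these levels. The part of free RNA or of rare other cells in the Psmb8 and Psmb9 counts was not tested.

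Set against its standard partner, Psmb10 had 48.2 UMIs per 100 Psmb7 UMIs on day 0 (counting interval 47.1 to 49.2), 30.9 on day 3 and 28.7 on day 6 in untreated cells. Psmb8 had 0.326 UMIs per 100 Psmb5 UMIs on day 0 (0.283 to 0.373), 0.151 on day 3 (0.119 to 0.188) and 0.267 on day 6 (0.215 to 0.328). The day 3 interval lay below the other 2, which overlap each other. Psmb9 had 0.152, 0.232 and 0.153 UMIs per 100 Psmb6 UMIs. These quotients compare libraries only, since 3′ tag counts are not divided by length. Psma8 and Psmb11, core subunits known from testis and thymus, had no UMI (Psma8, which allows up to between 0.0167 and 0.0339 CPM by 3 counts per library) and at most 0.03 CPM (Psmb11). Psmb8, Psmb9 and Psmb10 each overlap a gene on the opposite strand, as 14 of the 16 overlapping members do, and strand use in counting was not given in the sources used here.

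The activator genes took different courses. Psme2, a subunit of the interferon-inducible PA28αβ cap, had 148, 120 and 247 CPM from day 0 to day 6, with a log2 ratio of 1.03 on day 6 against day 3. Psme1, the other subunit of that cap, had 105, 62.1 and 91.3 CPM, with −0.74 at the first step and 0.55 at the second. On day 3 against day 0 it had the lowest ratio of the 44 members. Both PA28αβ genes thus had their lowest level on day 3, but only Psme2 was above its day 0 level on day 6. Psme3, which forms the nuclear PA28γ cap, had 32.8, 38.8 and 67.3 CPM, and its log2 ratio of day 6 to day 0 was 1.02. With Psma1 it made up the members past 2-fold over the 6 days. Psme4, the large PA200 cap, had 39.1, 49.7 and 47.8 CPM, and was called higher on day 3 against day 0 (0.34). Psmf1, the inhibitor PI31, had 30.6, 26.2 and 22.7 CPM and a log2 ratio of −0.42. Psme2b, a near copy of Psme2, had between 69 and 197 UMIs per library, and how reads matching both copies were counted was not given, so Psme2 levels are uncertain to that extent.

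**Figure D2:**
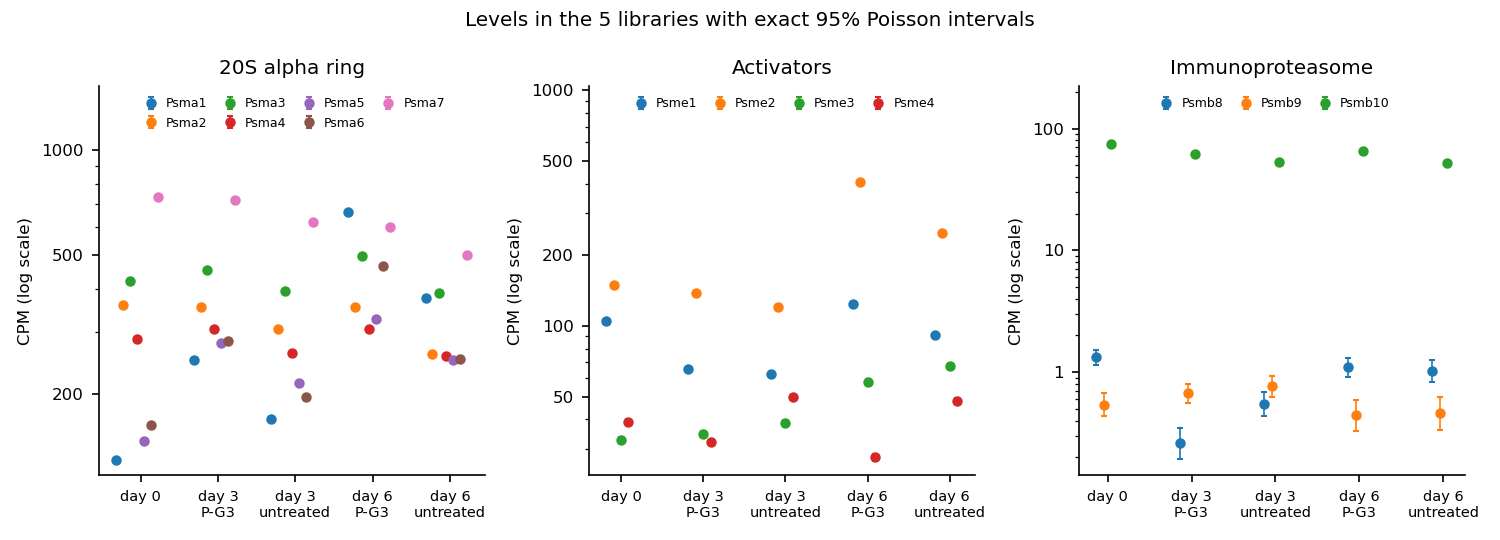
CPM on a log axis for the α ring, activator and immunoproteasome genes in the 5 libraries, with exact 95% Poisson intervals as bars, which are smaller than most points. The level of Psma1 is lowest on day 0 (129 CPM) and highest in the day 6 P-G3 library (663 CPM), that of Psme2 is highest there too (408 CPM), and Psmb8 and Psmb9 lie near 1 CPM or below in every library.

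Assembly chaperones were split. Psmg1 and Psmg2, which form a pair that guides α ring assembly, were higher on day 6 than on day 0. From day 0 to day 6 Psmg2 had 51.3, 53.1 and 72.0 CPM, and Psmg1 had 46.7, 50.1 and 60.1 CPM, with log2 ratios over the 6 days of 0.48 and 0.36. Psmg3 had 46.9, 48.3 and 45.7 CPM, and Psmg4, its partner in the other α ring chaperone, had 141, 114 and 144 CPM. Among the chaperones of the base, Psmd9 had 68.1, 58.3 and 46.4 CPM (−0.54), Psmd10 (gankyrin) had 38.8, 35.9 and 31.0 CPM (−0.31) and Psmd5 had 49.3, 44.0 and 45.7 CPM (−0.11). All 3 base chaperones and 5 of the 6 base ATPases thus had ratios below 0 over the 6 days. So did 30 of the 44 members, 10 of the 14 core genes and 4171 of 9693 genes, so this sign is not particular to the base.

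Genes that act with the proteasome did not follow a single course. The list made for NRF1 had 6 measured genes: Nfe2l1, Ddi2, Ngly1, Mafg, Nfe2l2 and Keap1. Nfe2l2 encodes the related factor NRF2 and Keap1 encodes the inhibitor of NRF2, so the list is not specific to NRF1. Of the 6, 4 were higher on day 3 than on day 0 (26.0% of all genes) and 5 on day 6 than on day 0 (39.8% of all genes). Keap1, with 28.8, 38.3 and 42.2 CPM from day 0 to day 6, is in both counts. At both times 0 were lower (21.4% and 29.1%). Nfe2l1 itself had 45.8, 64.0 and 159 CPM from day 0 to day 6, and its ratio over these days was 1.77 on the log2 scale. Ddi2, the protease that activates NRF1, had a ratio of 1.38 over the 6 days, and Ngly1, which removes its sugars, had 0.91. Over the same days the 14 core genes had a median of −0.14 (with each cell weighted equally the α and β medians were both 0.05), and Psmb5 and Psmb6, whose windows hold an antioxidant response element match, had −0.07 (0.06 with each cell weighted equally) and −0.23. RNA counts do not report NRF1 protein or its cleavage.

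Among 18 measured proteasome-associated genes, 9 were higher and 2 lower on day 6 than on day 0, where 39.8% and 29.1% of all genes were. The ubiquitin shuttle Ubqln1 had a log2 ratio of 1.60 while its relative Ubqln2 had −1.47. Rps27a, which encodes ubiquitin fused to a ribosomal protein, had −0.63. In the antigen presentation list, H2-K1 had −1.41 on day 3 against day 0 and 0.98 on day 6 against day 3, and H2-D1 had −1.12 at the first step. Psme1 and Psme2 had the same sign as both at the first step. Among other large assemblies, on day 6 against day 3, cytosolic ribosomal protein genes had a median of −0.47, mitochondrial ones 0.19 and the CCT chaperonin −0.12, beside −0.06 for the proteasome. The CCT median was also below 0 on day 3 (−0.25) and day 6 (−0.34) against day 0, as was the proteasome's.

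With P-G3, the proteasome genes stood high among all genes at both times. On day 3, 10 of the 44 measured members were higher with P-G3 than in untreated cells, where 6.51% of 5439 genes were, and 1 was lower, where 33.4% of genes were. On day 6, 19 were higher (all genes 9.4%) and 2 were lower (all genes 44.2%). The median log2 ratio was 0.21 on day 3 and 0.28 on day 6, against −0.23 and −0.34 over all genes, so it lay 0.44 and 0.62 above the median gene. Because the median gene is lower with P-G3 on the CPM scale, another scaling moves the counts. With TMM scaling, which brings the all-gene medians to near 0 (−0.02 on day 6), the members' medians were 0.45 and 0.61, and 34 and 37 members were called higher. At 2-fold, 0 members were higher (all genes 0.129% on day 3 and 0.126% on day 6) and 0 were lower (all genes 2.15% and 3.43%).

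Other gene families stood on the same side. Mitochondrial ribosomal protein genes had medians of 0.20 and 0.28 with P-G3, cytosolic ribosomal protein genes 0.12 and 0.22, and the CCT chaperonin 0.21 and 0.13. The P-G3 ratio ran with transcript length. Over 9215 genes on day 3 and 9137 on day 6 Spearman's rho between longest transcript length and the ratio was −0.60 and −0.62, and over the 44 members it was −0.53 and −0.61. These are correlations across genes of the same 2 libraries, and genes are not independent replicates. With the length trend of all genes removed, the members' medians were 0.22 and 0.26, where all genes were at 0. Median UMIs per cell also differed: 40306 with P-G3 against 34720.5 untreated on day 3, and 16657.5 with P-G3 against 34214.5 untreated on day 6. The part of length, depth or library quality in the ratios was not tested beyond this removal.

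**Figure D3:**
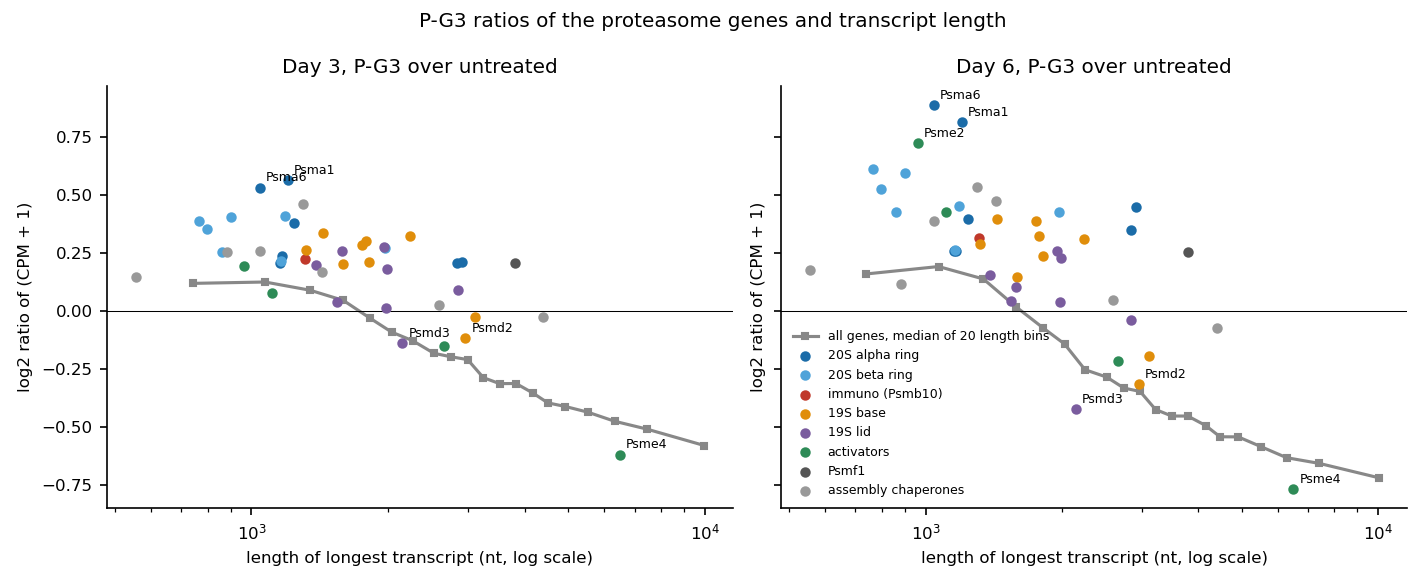
log2 ratio of (CPM + 1), P-G3 over untreated, on day 3 (left) and day 6 (right), against the length of each gene's longest transcript in nucleotides (log axis). Coloured points are the 44 measured proteasome genes by place in the complex, and the grey line joins the medians of all genes in 20 length bins. Most members lie above the grey line. Psma1 (0.56) and Psma6 (0.53) are the highest points on day 3 and Psma6 (0.89) and Psma1 (0.82) on day 6, and Psme4, the longest member, is the lowest point at both times.

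The core stood highest within the complex with P-G3. All 14 core genes had ratios above 0 at both times, with medians of 0.31 on day 3 and 0.44 on day 6, and 7 and 11 of them were called higher (all genes 6.51% and 9.4%). The base had medians of 0.26 and 0.29 and the lid 0.14 and 0.07. Base UMIs per core UMI were 0.260 with P-G3 against 0.281 untreated on day 3, and 0.201 with P-G3 against 0.248 untreated on day 6. Lid UMIs per core UMI were 0.241 against 0.272 and 0.189 against 0.255 in the same pairs. The lid median stayed below that of the core by 0.27 to 0.37 on day 6 under the 10 alternative settings, removal of the length trend included.

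Psma6 and Psma1 again had the highest ratios, before any removal of the length trend. Psma6 had 283 CPM with P-G3 against 195 CPM untreated on day 3, and 466 CPM with P-G3 against 251 CPM untreated on day 6, log2 ratios of 0.53 and 0.89. Psma1 had 250 CPM against 169 CPM on day 3 and 663 CPM against 376 CPM on day 6, ratios of 0.56 and 0.82, or 0.44 and 0.62 with the length trend removed. With that removal the median of the α ring was 0.40 on day 3 and 0.62 on day 6, against 0.24 and 0.40 before it. The day 6 median equals the value of Psma1 itself, so it gives no separate comparison for that gene. Psma2 and Psma3 have longest transcripts of 2911 and 2846 nucleotides, against 1042 to 1239 in the other α genes. The removal therefore moves these genes differently from the rest of the ring. Psma5 had 280 against 215 CPM and 328 against 249 CPM (0.38 and 0.40). These were also the α genes that were higher with time in untreated cells, and the untreated library of each day is in both kinds of ratio. The lowest α ratios were 0.21 on day 3 (Psma2, Psma3 and Psma7) and 0.26 on day 6 (Psma4 and Psma7). Markers of adipocytes were also higher with P-G3 (13068 against 8825 CPM on day 3 and 40587 against 34643 CPM on day 6), and summed preadipocyte markers were lower (1684 against 2789 CPM and 1116 against 1901 CPM). Their part in these ratios was not tested.

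The standard peptidase genes were higher with P-G3 as well. Psmb5 had 485 CPM with P-G3 against 366 CPM untreated on day 3 and 582 against 385 CPM on day 6, log2 ratios of 0.41 and 0.59. Psmb6 had 421 against 330 CPM and 437 against 303 CPM, ratios of 0.35 and 0.53. Psmb7 had 200 against 172 CPM and 217 against 181 CPM, ratios of 0.22 and 0.26, neither called higher. The β genes with the highest ratios were Psmb4 and Psmb5 on day 3 (0.41 each) and Psmb3 on day 6 (0.61). Psmb10 had 62.1 against 53.0 CPM and 65.0 against 52.0 CPM (0.22 and 0.32), close to Psmb7, so that its UMIs per 100 Psmb7 UMIs were 31.1 against 30.9 on day 3 and 29.9 against 28.7 on day 6, with overlapping counting intervals in both pairs. Psmb8 had 47 UMIs with P-G3 and 77 untreated on day 3, with a CPM ratio between 0.324 and 0.693, and on day 6 it had 118 and 91 UMIs with a ratio between 0.805 and 1.42. Psmb9 had a CPM ratio between 0.668 and 1.15 on day 3 and between 0.622 and 1.5 on day 6. Neither gene gives a level at which a P-G3 difference could be read at both times.

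In the base, Psmc4 had the highest ratio with P-G3 (0.34 and 0.40), with 144 against 114 CPM on day 3 and 120 against 90.6 CPM on day 6. All 6 ATPases had ratios above 0 at both times. The long scaffold genes Psmd1 and Psmd2 had −0.03 and −0.12 on day 3 and −0.20 and −0.31 on day 6, and the signs of both genes at both times turned with either other scaling and with the length trend removed. In the lid, Psmd12 (0.28 on day 3 and 0.26 on day 6) stood highest and Psmd3 lowest (−0.14 and −0.42, with 96.2 against 106 CPM and 80.1 against 108 CPM). Under the 10 alternative settings Psmd3 kept its sign on day 6, reaching −0.04 at the least, but on day 3 both other scalings turned it, to as high as 0.13.

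Psme4 was the member with the lowest ratio at both times, at 32.0 CPM with P-G3 against 49.7 CPM untreated on day 3 and 27.6 against 47.8 CPM on day 6. Its log2 ratios were −0.62 and −0.77, and −0.14 at both times with the length trend removed. It is the longest member, at 6491 nucleotides. Psme2 was higher on day 6, with 408 against 247 CPM (0.72, or 0.53 with the length trend removed), after 138 against 120 CPM on day 3 (0.19). Psme1 had 65.6 against 62.1 CPM on day 3 and 123 against 91.3 CPM on day 6 (0.08 and 0.43). Psme3 had 34.8 against 38.8 CPM and 57.8 against 67.3 CPM (−0.15 and −0.22), and removing the length trend or either other scaling turned both signs. Psmf1 had 0.21 and 0.26, or 0.52 and 0.71 with the length trend removed. Among the chaperones, Psmg2 stood highest at 0.46 and 0.54, with 73.6 against 53.1 CPM on day 3 and 105 against 72.0 CPM on day 6, and Psmd5, a long gene, lowest at −0.02 and −0.07, signs that both other scalings turned.

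Nfe2l1 was lower with P-G3 while the core genes were higher. It had 33.2 CPM with P-G3 against 64.0 CPM untreated on day 3, and 71.0 against 159 CPM on day 6, log2 ratios of −0.93 and −1.15, or −0.53 and −0.60 with the length trend removed. Ddi2 had −0.78 and −0.99, or −0.20 and −0.27 with that trend removed. Of the 6 measured genes of the NRF1 list, which includes Nfe2l2 and Keap1, 4 were lower at each time, where 33.4% and 44.2% of all genes were. At both times 0 were higher, where 6.51% and 9.4% were. The genes of this list are long. Over those with at least 5 CPM the median was −0.46 and −0.58, or −0.09 and −0.21 with the length trend removed. Among the associated genes, Ubqln2 had −0.92 and −1.03, and the ubiquitin receptor Adrm1 had 0.36 on day 3. In the antigen presentation list, Tapbp and Calr, which act in loading peptides on class I molecules, had −0.64 and −0.34 on day 3 and −0.89 and −0.80 on day 6.

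Between the P-G3 libraries, day 6 against day 3, the members' median was 0.00, with 8 higher (all genes 29.0%) and 4 lower (all genes 26.0%). At 2-fold 2 were higher (all genes 7.02%) and 0 were lower (all genes 5.99%). The highest ratios were those of Psme2 (1.56), Psma1 (1.40) and Psme1 (0.90), and the lowest were those of Psmc3 (−0.54), Psmd7 (−0.46) and Psmd1 (−0.35). The base stood 0.35 log2 units below the core, in medians, and 0.26 to 0.36 below it under the 10 alternative settings.

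Cells of the same library differ in how far they have differentiated, so the members were also compared between a top and a bottom group: the third of cells with the highest share of adipocyte marker UMIs and the third with the lowest, among cells with at least 10000 UMIs. No replicate stands behind these values, and cells of a library share their source. In the day 3 P-G3 library the members' median log2 ratio was 0.55, with 34 higher (all genes 39.8%) and 1 lower (all genes 22.5%). In the day 3 untreated library it was 0.36, with 25 higher (all genes 30.4%) and 1 lower (all genes 24.8%). On day 6 it was 0.05 with P-G3, with 6 higher (28.2% of genes) and 2 lower (22.6%), and 0.08 in untreated cells, with 8 higher (28.7%) and 0 lower (28.3%). Cells of the top group also had more UMIs. On day 3 the medians were 62788 in the top and 28952 in the bottom group with P-G3, and 51325 and 31300 untreated. On day 6 they were 63011 and 38209 with P-G3, and 65821 and 38174 untreated. With cells limited to 30000 to 60000 UMIs, 26 members were higher and 1 lower with P-G3 on day 3, and 21 higher and 1 lower untreated. On day 6 that limit gave 3 higher and 3 lower with P-G3, and 12 higher and 1 lower untreated. The share over all genes was not computed for this set. The part of cell size or depth was not tested beyond this.

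Psma1 followed the adipocyte markers within every differentiating library, with log2 ratios of the top over the bottom group of 1.2 and 0.85 on day 3 (P-G3 and untreated) and 1.5 and 1.77 on day 6 (P-G3 and untreated). Psma6 had 0.78 and 0.61 on day 3 and 0.75 and 0.78 on day 6 in the same order. Psma5 had 1.04 and 0.91 on day 3, but 0.26 and 0.32 on day 6. Psme2 went the other way in time, with 0.23 and 0.44 on day 3 and 0.81 and 0.98 on day 6. Psme1 was below 0 on day 3 (−0.66 with P-G3 and −0.52 untreated) and above 0 on day 6 (0.36 and 0.08). Psmb10 was above 0 on day 3 (0.54 and 0.33) and below 0 on day 6 (−0.45 and −0.19). Psma1, Psma6 and Psme2, named above for their ratios between libraries, were also higher in the more adipocyte-marked cells of day 6. So were 28.2% of all genes with P-G3 and 28.7% untreated. Psme3, past 2-fold on day 6 against day 0, had ratios from 0.16 to 0.93 over the 4 differentiating libraries.

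Split by markers of dividing cells, the base and lid stood above the β ring. All 9 base genes had ratios above 0 in each of the 5 libraries. Of all genes, between 4513 of 9487 (day 3 untreated) and 5492 of 8614 (day 6 P-G3) were above 0. On day 6 the top group began at 0.85 (P-G3) and 0.90 (untreated) division marker UMIs per 10000, against 11.7 on day 0. The bottom group ended at 0.36 and 0.39 on day 6, so these limits lie few such UMIs apart. Whether the day 6 top group was dividing was not tested. The top group had more UMIs per cell here too, with medians for the top and bottom group of 51821 and 31296 (day 3 P-G3), 47329 and 27422 (day 3 untreated), 60578 and 47572 (day 6 P-G3), 61453 and 49222 (day 6 untreated) and 56040.5 and 39004.5 (day 0). With cells limited to 30000 to 60000 UMIs, 4 members were higher on day 0, 14 (P-G3) and 7 (untreated) on day 3, and 2 in each day 6 library. The share over all genes was not computed for this set, and the part of UMIs per cell was not tested beyond this. The members' medians were 0.16 on day 0 (4 higher, all genes 24.1%, and 0 lower, all genes 13.6%), 0.25 on day 3 with P-G3 (18 higher, all genes 32.1%, and 2 lower, all genes 15.1%) and 0.25 on day 3 untreated (16 higher, all genes 27.5%, and 2 lower, all genes 20.7%). On day 6 they were 0.10 with P-G3 (4 higher, all genes 12.7%, and 0 lower, all genes 5.22%) and 0.19 untreated (8 higher, all genes 17.3%, and 0 lower, all genes 6.69%). Psmg2, the α ring chaperone, had 0.67 on day 0, 0.71 on day 3 with P-G3 and 0.72 on day 3 untreated. Psme1 was below 0 in all 5 libraries, from −0.74 (day 3 P-G3) to −0.11 (day 6 untreated). Summed division markers were lower on day 6 than on day 0 (262 against 1277 CPM), as were most base genes, and the part of dividing cells in that was not tested.

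**Figure D4:**
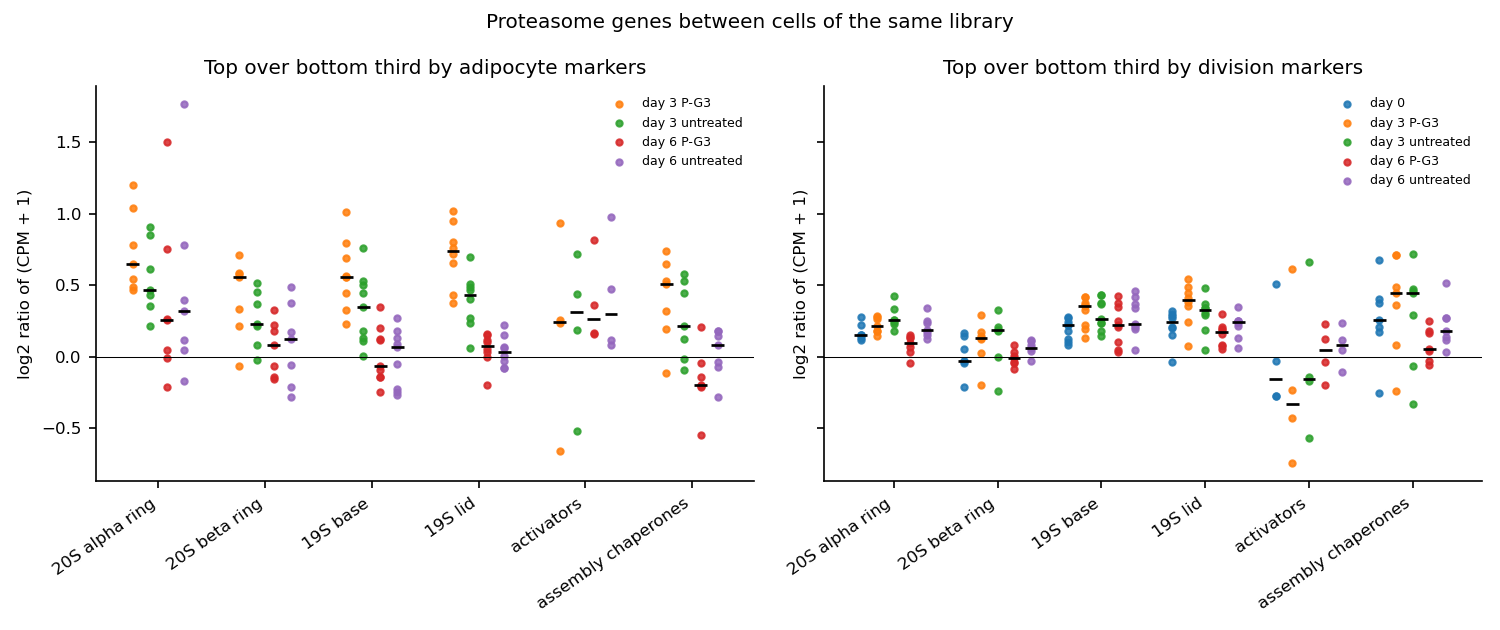
log2 ratio of (CPM + 1) of the third of cells with the highest marker share over the third with the lowest, by adipocyte markers (left, 4 libraries) and division markers (right, 5 libraries). Each point is 1 measured gene, colours are libraries and black bars are medians. On the left the medians over the core, base and lid are higher in the day 3 libraries than in the day 6 libraries. Single points need not follow, and the highest core points are day 6 ones (1.77 untreated and 1.5 with P-G3, both Psma1). Psma1 is the highest α point of each library but day 3 untreated, where Psma5 (0.91) is above it (0.85). On the right all base points are above 0.

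The family's sum was also followed per cell. Each cell of at least 10000 UMIs was thinned to 10000 UMIs, which left out between 28 and 218 cells in the day 0 and day 3 libraries, 1665 in the day 6 P-G3 library and 927 in the day 6 untreated library. Summed proteasome UMIs were 84.7 ± 15.9 per cell on day 0 (mean ± SD over cells of 1 library), 87.2 ± 24.9 with P-G3 and 74.3 ± 22.8 untreated on day 3, and 99.1 ± 22.3 with P-G3 and 76.5 ± 23.5 untreated on day 6. Unthinned medians per 10000 UMIs were 84.8 on day 0, 85.2 and 71.2 on day 3, and 99.2 and 74.9 on day 6, with P-G3 and untreated in that order. None of these thinned cells was without a proteasome UMI; the part of free RNA was not measured, and shallower cells were not examined. The variance over the mean was 2.99 on day 0, and the other 4 libraries had 5.0 to 7.23, so cells differed in the family's sum more on day 3 and day 6 than on day 0. Core and base UMIs of a cell had a Pearson correlation of 0.29 on day 0, 0.60 with P-G3 and 0.58 untreated on day 3, and 0.35 with P-G3 and 0.49 untreated on day 6. Both measures were higher with thinning to 20000 UMIs, so they depend on depth. The variance over the mean was then 4.79 on day 0 and 7.94 to 12.6 in the other 4 libraries. The correlation was then 0.39 on day 0, 0.69 with P-G3 and 0.68 untreated on day 3, and 0.42 with P-G3 and 0.54 untreated on day 6. These are descriptions over the cells of each library, which share the library and the fixed number of UMIs.

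**Figure D5:**
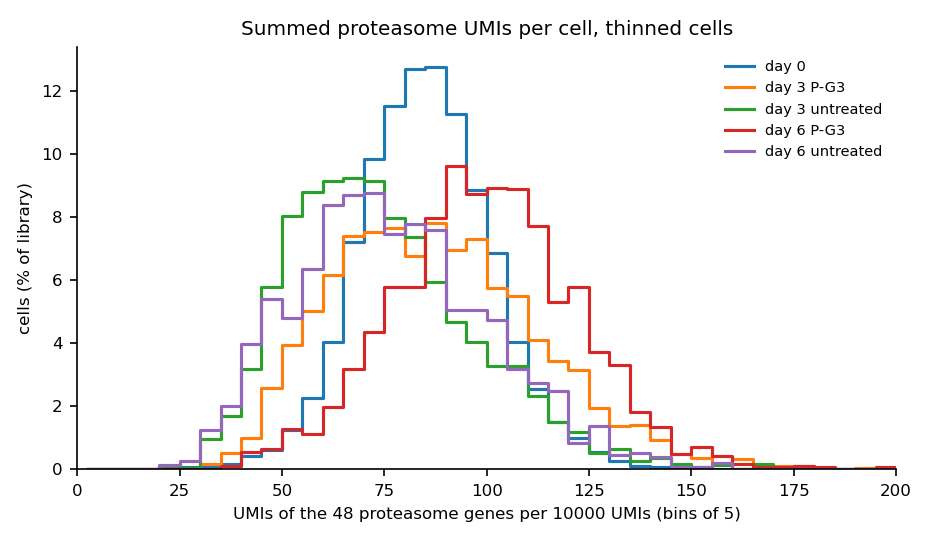
Distribution over cells of the summed UMIs of the 48 proteasome genes after thinning every cell to 10000 UMIs, in bins of 5 UMIs, as a percent of each library's cells. The day 0 curve is the narrowest (SD 15.9), the day 6 P-G3 curve lies farthest right (mean 99.1) and the day 3 and day 6 untreated curves lie farthest left (means 74.3 and 76.5).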

How the data were processed

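The data were droplet single-cell RNA-seq of 3T3-L1 cells, 1 library per group, made with a 10x Genomics 3′ kit per the labels' protocols. The values used are raw UMI counts per gene and cell, as deposited by the authors. Alignment was to GRCm38, and Cell Ranger was named as version 3.1.0 per the submitters' processing notes and as 5.0.1 per the file headers, so its version is uncertain. Strand use in counting was not given in the sources used here.

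Barcodes needed 500 or more genes detected and no more than 20% mitochondrial UMIs to be kept, their counts were summed per library and divided by the library's total to give CPM. No doublet caller was run. Ratios are log2 with a pseudocount of 1 CPM, medians cover genes that reach 5 CPM in 1 of the 2 libraries, and calls need 20 CPM and a difference of 25%. With 1 library per group no p-value was computed. Levels have exact 95% Poisson intervals, and ratios of UMIs have exact conditional binomial intervals, for counting error only. A count of 0 was given a limit of 3 counts. Transcript lengths are those of the longest protein-coding transcript in GENCODE vM21, and start windows are RefSeq's. TMM scaling used edgeR 4.0.16 in R 4.3.3, on library sums. Other steps used Python 3.11.15, numpy 2.4.6, scipy 1.17.1 and pandas 2.3.3. The ratio and interval steps were checked on simulated counts.

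In each comparison the text names Psmb5 to Psmb10, the 3 highest and 3 lowest members, the highest and lowest of each subunit group, members under 5 CPM everywhere, and up to 4 genes of each partner list. Some genes of the partner lists are not reported here. Other members are named to complete a subunit group. Markers of endothelial and epithelial cells summed to at most 1.36 and 28.9 CPM in any library. The members and lists were chosen with earlier results of these data known. Alternatives were TMM and median-of-ratios scaling, all deposited barcodes, cells of 30000 to 60000 or at least 10000 UMIs, leaving out the 5% deepest cells, equal weight per cell, a pseudocount of 0.1, other level filters, and removal of the length trend.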

Additional observations from a re-analysis of the deposited data

Results flagged for a closer look

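Proteasome RNA was also present in the barcodes left out of every comparison, which had under 500 detected genes or over 20% mitochondrial UMIs and are outside the main measurement. The 48 genes summed to 2815 CPM in the 37 barcodes left out on day 0. They summed to 3770 CPM in 61 barcodes with P-G3 and to 4013 CPM in 97 untreated barcodes on day 3. On day 6 they summed to 4908 CPM in 2173 barcodes with P-G3 and to 4689 CPM in 2814 untreated barcodes. Each of these 5 sums is above the limit that a count of 0 allows and below the sum in the kept cells of the same library. What these barcodes hold was not tested.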

How the results depend on the processing

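No paired analysis was possible because each group is 1 library and no test was made. Of 174 recomputed counts of members past the 25% limit, 133 were within 1.5 times the main count, and no result past its threshold reversed. With TMM and with median-of-ratios scaling, day 3 against day 0 had 1 and 1 higher (3 in the main count) and 17 and 18 lower (7), and day 6 against day 0 had 20 and 22 lower (13). P-G3 against untreated had 34 and 35 higher on day 3 (10), and 37 and 38 higher (19) and 1 and 1 lower (2) on day 6. Day 6 against day 3 had 6 lower (3) with TMM, and with P-G3 2 and 2 lower (4). Equal weight per cell gave 11 lower for day 3 against day 0, 11 higher (7) and 1 lower (3) for day 6 against day 3, and 11 higher (19) for P-G3 on day 6. All deposited barcodes, and removal of the length trend, each gave 6 lower for day 6 against day 3. That removal gave 0 lower with P-G3 on day 3 (1) and on day 6 (2). Cells of 30000 to 60000 UMIs gave 1 higher for day 3 against day 0, 4 higher with P-G3 on day 3 and 2 lower for day 6 against day 3 with P-G3. Leaving out the 5% deepest cells also gave 2 lower (4) in that last comparison. In the split by adipocyte markers, cells of 30000 to 60000 UMIs gave 3 higher (6) with P-G3 and 1 lower (0) untreated on day 6. In the split by division markers they gave 7 higher (16) and 1 lower (2) on day 3 untreated, and on day 6 they gave 2 higher with P-G3 (4) and 2 untreated (8). The extreme 20% of cells at either end, in place of larger groups, gave, by adipocyte markers on day 6, 11 higher with P-G3 (6), and 15 higher (8) and 1 lower (0) untreated. By division markers they gave 2 lower on day 0 (0), 1 lower on day 3 untreated (2), and on day 6 they gave 8 higher (4) and 1 lower (0) with P-G3 and 13 higher (8) untreated. The cause of these changes was not tested, except that fewer cells enter in the narrower cell sets and that scaling shifts every ratio of a comparison by the same amount. Leaving out a replicate was not possible with 1 library per group. Of the medians of gene groups, 413 moved by under 0.05 log2 and 256 by more. Of the ratios of named single members, 386 stayed within their counting intervals and 324 did not. Of the per-cell values recomputed at 20000 UMIs, 1 moved by under 0.05 and 19 by more. The 45 immunoproteasome quotients all stayed within their counting intervals. They were recomputed only with all deposited barcodes, cells of at least 10000 UMIs and without the 5% deepest cells. These sets share most cells or UMIs with the main set. Depth limits Psmb8 and Psmb9, with 41 to 210 UMIs per library.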
